A study of Homo sapiens with 12 samples.

Results

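The 4 RNA-seq libraries of SKOV-3 cells were compared with the 4 libraries of T1074 cells, and no other libraries entered the tests. These are 8 of the 12 libraries of the study, and every gene with enough counts in them was a member of the comparison, which gave 17969 genes tested of 61533 genes in the files. The study paired RNA-seq with proteomics to ask which proteins, variants and unannotated reading frames ovarian cancer cells hold that ovarian epithelial cells do not. SKOV-3 is an ovarian cancer line that the labels call ovarian serous cystadenocarcinoma and the study describes as clear cell carcinoma from ascites, grown in McCoy's 5A medium. T1074 is a line of ovarian epithelial cells immortalized with SV-40 and grown in Prigrow I medium, and the labels name no viral gene. Both lines were grown with fetal bovine serum and antibiotics, both carry the genotype label WT, and neither was treated. Each group is 1 cell line, so the line, its donor, its tissue of origin, its immortalization and its medium cannot be told apart. RNA was taken from 4 replicates of harvested cells of each line, and nothing states that these were separate cultures, so a p-value sets the lines against a spread of replicates that may be no more than technical.

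Ovarian carcinomas of several histological types resemble the epithelia that form from the Müllerian ducts, and they use their transcription factors, such as PAX8 and SOX17. The ovarian surface epithelium is a modified mesothelium of coelomic origin, shares transcription factors with the gonad, such as GATA4, WT1 and NR5A1, and holds both epithelial keratins and mesenchymal genes. The large T antigen of the SV40 virus, which is often used to immortalize cells, binds the proteins of the RB family, which hold back the cell cycle.

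Levels are given as CPM, the counts of a gene per 1000000 counts of its library after TMM scaling, and a level with an error is the mean ± SD over the 4 libraries of a line. Differences are given as the log2 fold change of SKOV-3 over T1074 ± its SE from edgeR's quasi-likelihood test, with Benjamini-Hochberg adjusted p-values over the 17969 genes and a threshold of 0.05. By this test 6030 genes, or 33.6%, were higher in SKOV-3 and 6177 genes, or 34.4%, were lower, so that 67.9% of all genes tested differed. The difference was at least 8-fold for 1272 of the higher and 1118 of the lower genes, while the median over all genes tested was -0.01 on the log2 scale. The CPM ranges of the lines did not overlap for 63.9% of the genes tested. A count of list members that passed the test is therefore to be read against about 1 in 3 genes in each direction. A gene with too few counts in 1 line was tested only if the other line had enough, which nearly fixes its direction. The libraries of a line resembled each other closely, with correlations of log2 CPM of 0.9872 to 0.9924 within SKOV-3, 0.9725 to 0.9813 within T1074 and 0.771 to 0.7924 between the lines. SKOV-3 libraries had a total expected count of 47340136 to 55739060 and T1074 libraries one of 19780836 to 38583368, and rRNA-like genes held 0.0872% to 0.679% of the SKOV-3 counts against 4.36% to 21.4% of those of T1074, where replicate 1 was highest.

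**Figure D1:**
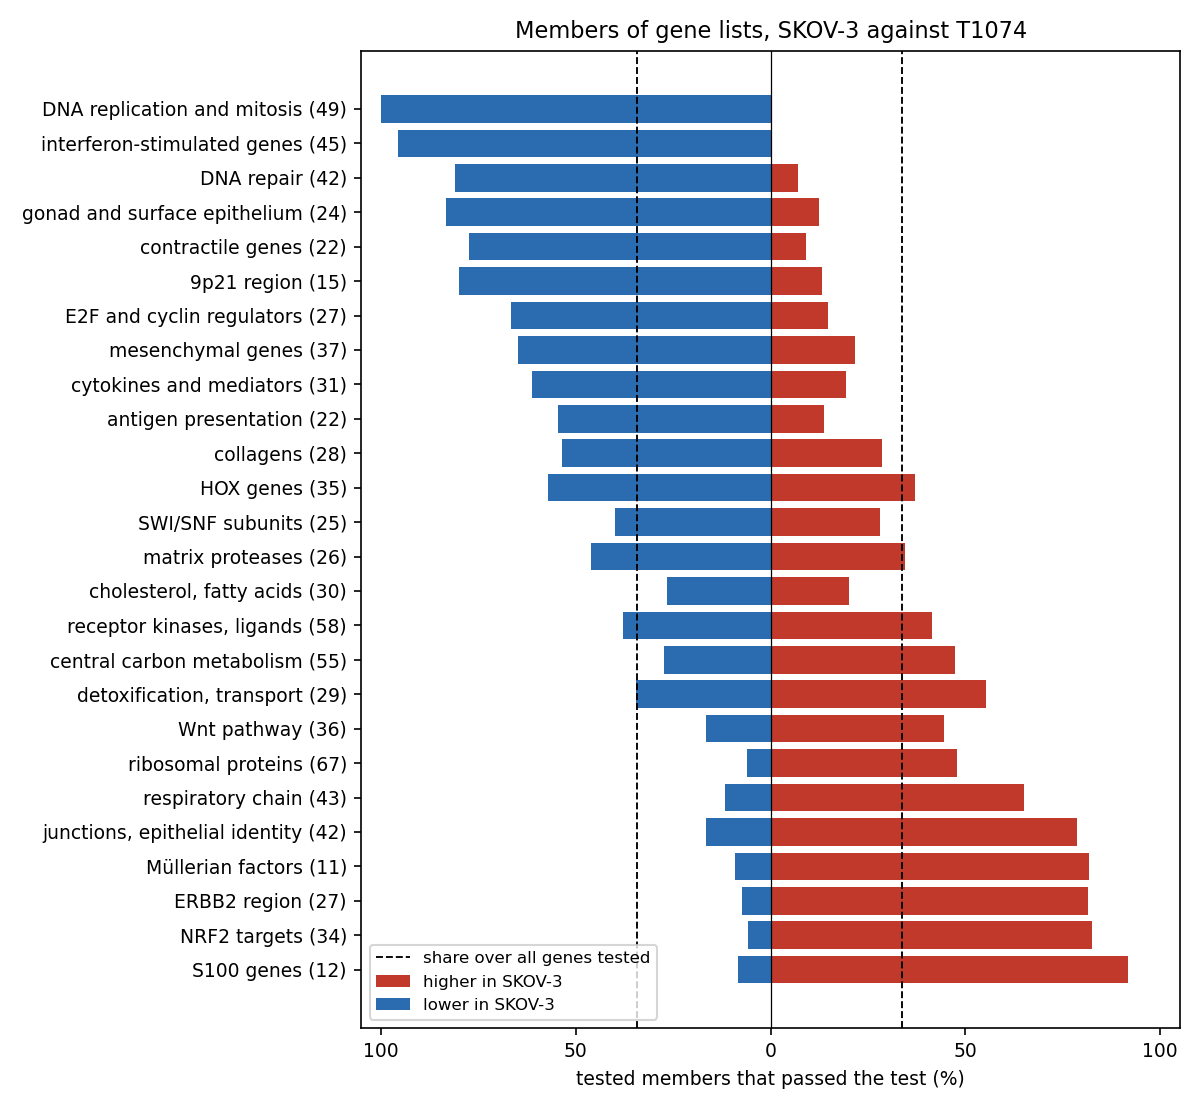
Share of the tested members of 26 gene lists that were higher (right, red) or lower (left, blue) in SKOV-3 than in T1074, in percent of the members tested, with the number tested beside each name. Dashed lines mark the shares over all genes tested, 33.6% higher and 34.4% lower. Replication and mitosis genes and interferon-stimulated genes reach furthest to the left. S100 genes, Müllerian transcription factors and the list of NRF2 and its targets reach furthest to the right.

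The labels' cell types were first checked against markers. Of the 9 tested epithelial markers, 7 were higher and 1 lower in SKOV-3. CDH1, the gene of the adhesion molecule E-cadherin, was at 22.4, 30.0, 29.3 and 23.0 CPM in SKOV-3 replicates 1 to 4 and at 0.463, 0.300, 0.396 and 0.278 CPM in those of T1074. All 4 SKOV-3 libraries thus lay far above those of T1074 (log2 fold change 6.22 ± 0.21, adjusted p = 3.30e-09). The keratins of simple epithelia were present in both lines, with KRT8 at 626 ± 310 CPM in T1074 and 442 ± 89.9 CPM in SKOV-3, a difference that did not pass the test, and KRT18 at 333 ± 164 and 151 ± 24.7 CPM, which was lower in SKOV-3. Of the 10 tested mesothelial markers, 6 were lower in SKOV-3, and UPK3B, a uroplakin, and KRT19, a keratin, were higher, with log2 fold changes of 3.30 ± 0.48 and 1.33 ± 0.42. The adjusted p of KRT19 was 0.0151, or 0.0503 without SKOV-3 replicate 1. The lower ones include BNC1, a zinc finger factor of surface epithelia, at 116 ± 32.2 CPM in T1074 against 3.51 ± 0.949 CPM. CALB2, the gene of calretinin, was at 20.1 ± 14.2 against 0.335 ± 0.0652 CPM, which is a log2 fold change of -5.90 ± 0.52, or -5.29 without T1074 replicate 4.

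Fibroblast markers were lower in SKOV-3 for 7 of 9 tested, and their summed level was 708, 1260, 288 and 1694 CPM in T1074 replicates 1 to 4 against 45.9, 28.0, 26.5 and 10.5 CPM in those of SKOV-3. Within this list COL1A2, the partner chain of type I collagen, and the proteoglycan gene LUM went the other way at low levels, 0.622 ± 0.571 against 3.70 ± 2.13 CPM and 0.0631 ± 0.0525 against 1.03 ± 0.523 CPM. Their log2 fold changes were 2.53 ± 0.62 and 3.97 ± 0.61, or 3.43 and 4.62 without T1074 replicate 4. The defining immune markers PTPRC, CD3D, CD3E and TYROBP were at or below 0.297 CPM in all 8 libraries, and of this list only CD14 and CD68 were tested, both of which were lower in SKOV-3. The adjusted p of CD68 was 0.0298, or 0.0651 without SKOV-3 replicate 2 and 0.0887 without T1074 replicate 3. Of 6 tested endothelial markers, 5 were lower, and PECAM1, an adhesion molecule of endothelium, was higher at 2.08 ± 0.704 against 0.258 ± 0.250 CPM, a log2 fold change of 2.94 ± 0.53, or 3.90 without T1074 replicate 3. TEK, the receptor of angiopoietins, had the highest level of that list, 31.2 ± 10.1 CPM in T1074 against 0.0254 ± 0.0307 CPM in SKOV-3, while the defining marker CDH5, the cadherin of endothelium, was at or below 0.506 CPM in all 8 libraries.

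Transcription factors of Müllerian epithelia were mostly higher in SKOV-3, and those of the gonad and surface epithelium mostly lower. Of 18 members of the Müllerian list, 11 had enough counts to be tested. Of these, 9 were higher and 1 lower, with a median log2 fold change of 4.81. Members with few counts in T1074 were tested only through their counts in SKOV-3. The homeodomain gene LHX1 had 26.1 ± 6.77 CPM against 0.0421 ± 0.0490 CPM. SOX17, a factor of endoderm and of Müllerian epithelium, rose from 4.65 ± 1.37 CPM in T1074 to 77.0 ± 8.82 CPM (log2 fold change 4.05 ± 0.21, adjusted p = 5.48e-08). MECOM, a zinc finger factor, was already expressed in T1074 at 18.1 ± 4.05 CPM and reached 509 ± 36.8 CPM in SKOV-3, and no library of T1074 came near those of SKOV-3.

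Of 24 tested genes of the gonad and surface epithelium, 20 were lower and 3 higher in SKOV-3, with a median of -3.58. GATA4, a zinc finger factor of the gonad and heart, was at 44.8, 35.7, 42.3 and 43.5 CPM in T1074 and at 0.0198, 0.0390, 0.0215 and 0.0413 CPM in SKOV-3. The 4 libraries of T1074 lay close together and far above those of SKOV-3 (log2 fold change -10.28 ± 0.22, adjusted p = 6.29e-10). NR5A1, which drives genes of steroid synthesis, was at 13.3 ± 0.914 against 0.0250 ± 0.0193 CPM, and FOXL2, a forkhead factor of granulosa cells, at 19.8 ± 2.75 against 0.222 ± 0.0807 CPM. All 6 tested markers of granulosa and steroid-forming cells were lower, and their sum was 40.4 to 56.1 CPM in T1074 against 2.21 to 3.44 CPM in SKOV-3, while CYP19A1 and FSHR, defining markers of granulosa cells, were at or below 0.0462 CPM in all 8 libraries. WT1 fell from 22.9 ± 10.5 to 0.955 ± 0.452 CPM. ALDH1A2 and ALDH1A3, enzymes that make retinoic acid, fell, with log2 fold changes of -4.79 ± 0.28 and -5.96 ± 0.43. The list's exceptions were CALB1, UPK3B and INHBB, of which CALB1, a calcium-binding protein, was at 144 ± 40.2 CPM in SKOV-3 and 0.0483 ± 0.0601 CPM in T1074.

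In the list of nuclear hormone receptors and estrogen targets, 7 of 20 tested were higher and 8 lower. These shares, 35.0% and 40.0%, are close to those of all genes, 33.6% and 34.4%. ESR1, the gene of estrogen receptor alpha, had levels of 161, 172, 175 and 128 CPM in the SKOV-3 libraries and 0.308, 0.416, 0.669 and 0.810 CPM in those of T1074 (log2 fold change 8.11 ± 0.26, adjusted p = 1.78e-09). GREB1, a cofactor gene that estrogen receptor activates in breast cells, rose by 5.76 ± 0.35 on the log2 scale, whereas the estrogen-responsive gene TFF1 stayed at or below 0.0231 CPM in all 8 libraries. Progesterone receptor PGR was lower in SKOV-3, at 0.527 ± 0.152 against 5.82 ± 1.27 CPM, as was RARB, the gene of retinoic acid receptor beta. PPARG, a receptor that controls lipid genes, rose by 3.98 ± 0.15 on the log2 scale.

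Genes of cell junctions and epithelial identity rose in SKOV-3 for 33 of 42 tested and fell for 7, with a median of 2.43. SPINT2, an inhibitor of serine proteases on epithelia, had 261, 216, 254 and 210 CPM in SKOV-3 and 0.896, 2.10, 2.27 and 2.43 CPM in T1074, so that the lines were separated in every library. PKP3, a desmosomal plakophilin, rose from 4.49 ± 0.788 to 44.9 ± 8.49 CPM. ELF3 and EHF, factors of epithelial differentiation, rose by 3.84 ± 0.39 and 5.81 ± 0.54 on the log2 scale, and EHF by 6.59 without T1074 replicate 3. GRHL2 and RAB25, which many epithelia express, stayed at or below 0.0462 CPM in all 8 libraries and were not tested. The scaffold gene TJP1 and the desmosomal genes DSC2 and PKP2 went the other way, and PKP2 fell from 149 ± 47.6 to 43.3 ± 4.33 CPM. The S100 genes, which encode small calcium-binding proteins, rose for 11 of 12 list members tested. S100A4 was at 302, 172, 276 and 130 CPM in SKOV-3 and 1.03, 0.531, 1.91 and 1.01 CPM in T1074. S100A10 was the only list member that fell, with a log2 fold change of -0.80 ± 0.31 and lines that overlapped, and its adjusted p of 0.0389 became 0.0790 to 0.107 when SKOV-3 replicate 2, 3 or 4 or T1074 replicate 3 or 4 was left out.

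Of 29 listed antigens that ovarian carcinomas carry on the surface or secrete, 20 had enough counts to be tested. Of these, 15 rose and none fell, with a median of 3.68, and 5 did not pass. Members with few counts in T1074 were tested only through their counts in SKOV-3, so a fall could hardly be seen for them. SLPI, the gene of a secreted inhibitor of leukocyte proteases, was at 302, 320, 268 and 281 CPM in SKOV-3 and 0, 0.139, 0.396 and 0.0759 CPM in T1074 (log2 fold change 10.70 ± 0.41, adjusted p = 6.45e-09), and the difference was 11.66 on the log2 scale without T1074 replicate 3. The genes of the copper carrier ceruloplasmin, CP, and of the iron-binding lipocalin LCN2 rose to 172 ± 47.1 and 94.1 ± 18.7 CPM from 0.126 ± 0.0870 and 0.323 ± 0.382 CPM. FOLR1, the folate receptor that antibody drugs bind, was at 16.4 ± 4.33 against 0.0121 ± 0.0140 CPM, and SPP1, which encodes osteopontin, at 125 ± 36.1 against 0.738 ± 0.338 CPM. The serum markers CA125 and HE4 are products of MUC16 and WFDC2, and both genes stayed low in SKOV-3, at 0.391 ± 0.126 and 1.78 ± 0.281 CPM, although they passed the test. The adjusted p of MUC16 was 0.0351, and 0.0634 to 0.0917 when any library except SKOV-3 replicate 4 or T1074 replicate 2 was left out. MSLN, the gene of mesothelin, was at 10.5 ± 1.02 CPM in SKOV-3 and 13.5 ± 5.21 CPM in T1074 and did not pass, with an adjusted p of 0.219, or 0.0347 without T1074 replicate 1. Of the keratins, 9 of 12 tested were higher and 1 lower. KRT7, a keratin of glandular epithelia, rose from 160 ± 77.7 to 507 ± 202 CPM and KRT17, of stressed and basal epithelia, from 3.27 ± 2.90 to 43.7 ± 19.8 CPM.

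Mesenchymal genes were lower in SKOV-3 for 24 of 37 tested and higher for 8, with a median of -1.62, and the higher ones include abundant genes. VIM, the intermediate filament gene vimentin, rose from 644 ± 161 to 1713 ± 606 CPM (log2 fold change 1.41 ± 0.27, adjusted p = 0.000839), and VCAN, the gene of the matrix proteoglycan versican, from 43.3 ± 11.4 to 803 ± 303 CPM. FN1, the gene of fibronectin, was at 1404 ± 536 and 1691 ± 327 CPM and did not pass the test. CDH2, which encodes N-cadherin, fell from 196 ± 56.7 to 40.2 ± 5.30 CPM, and CDH11, a cadherin of mesenchymal cells, from 127 ± 27.5 to 0.169 ± 0.0423 CPM. Among factors that repress epithelial genes, ZEB1 rose by 0.87 ± 0.11 while ZEB2 fell by 3.66 ± 0.15 on the log2 scale. TCF4, a basic helix-loop-helix factor, fell from 52.8 ± 20.8 to 0.173 ± 0.0372 CPM, and TBX18, a T-box factor of the coelomic lining, was at 41.5 ± 3.55 CPM in T1074 and at 0 in every SKOV-3 library. The counts of this group were 6 higher, 7 lower and 2 not passed of 15 tested.

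Contractile genes of smooth muscle and myofibroblasts fell for 17 of 22 tested, with a median of -2.71. ACTA2, the gene of smooth muscle actin, was at 46.9, 181, 27.8 and 529 CPM in T1074 replicates 1 to 4 and at 0.927, 0.482, 0.671 and 0.631 CPM in SKOV-3. T1074 replicate 4 stood far above the others, and the log2 fold change of ACTA2 was -8.16 ± 1.01 with it and -6.97 without it. MYL9, a myosin light chain, and FLNC, the muscle filamin, fell to 0.461 ± 0.0740 and 0.236 ± 0.0960 CPM from 195 ± 121 and 213 ± 54.2 CPM. FLNA, the filamin that crosslinks actin in most cells, rose instead, from 2286 ± 670 to 6149 ± 942 CPM (log2 fold change 1.43 ± 0.24, adjusted p = 0.000280). CCN1 and CCN2, matricellular genes that respond to the YAP and TAZ coactivators, fell, with log2 fold changes of -3.75 ± 0.18 and -3.98 ± 0.31.

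Of 28 collagen genes tested, 15 were lower and 8 higher in SKOV-3. The fibrillar collagen gene COL3A1 was at 324, 477, 51.6 and 746 CPM in T1074 and at 2.45, 1.95, 1.36 and 0.124 CPM in SKOV-3, with replicate 3 lowest and replicate 4 highest of T1074. COL12A1 and COL18A1 rose to 1149 ± 298 and 716 ± 79.6 CPM from 317 ± 77.7 and 51.2 ± 20.8 CPM. In the basement membrane, the genes LAMA3 and LAMB3 of the epithelial laminin trimer rose by 1.12 ± 0.16 and 6.03 ± 0.22 on the log2 scale while LAMA1 fell from 227 ± 73.8 to 0.177 ± 0.0734 CPM. Of the nidogens, which link laminin to collagen IV, NID1 fell from 151 ± 53.7 to 2.33 ± 0.449 CPM and NID2 rose from 0.994 ± 0.319 to 86.5 ± 13.4 CPM. Among integrins, the receptors of these molecules, ITGA3 and ITGA6, alpha chains of laminin receptors, rose by 2.04 ± 0.32 and 2.57 ± 0.21, and the fibronectin receptor chain ITGA5 fell by 2.02 ± 0.23. ITGB6, the epithelial partner of the alpha v chain, was at 20.9 ± 6.52 CPM against 0.0379 ± 0.0253 CPM.

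Of 26 genes tested of matrix proteases and their inhibitors, 9 were higher and 12 lower, or 34.6% and 46.2%. Over all genes tested the shares were 33.6% and 34.4%, so a mix of directions is not particular to this list. The collagenase gene MMP1 was at 176, 99.6, 108 and 75.2 CPM in SKOV-3 and 0.103, 0, 0.0248 and 0 CPM in T1074. The membrane-bound MMP14 went the other way, with 108, 110, 73.0 and 143 CPM in T1074 and 0.139, 0.0195, 0.151 and 0.165 CPM in SKOV-3 (log2 fold change -9.82 ± 0.37, adjusted p = 6.27e-09). MMP1 lies in a block of 5 neighbouring matrix metalloproteinase genes, MMP7, MMP10, MMP1, MMP3 and MMP13 on chr11:102520508-102955732, all of which were higher in SKOV-3, though MMP3 overlapped between the lines at 0.546 ± 0.235 against 0.0807 ± 0.145 CPM and its log2 fold change of 2.57 ± 0.79 was 5.43 without T1074 replicate 3. MMP2 and the inhibitor TIMP1 did not pass the test, and the inhibitor TIMP3 fell by 2.61 ± 0.25 on the log2 scale.

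**Figure D2:**
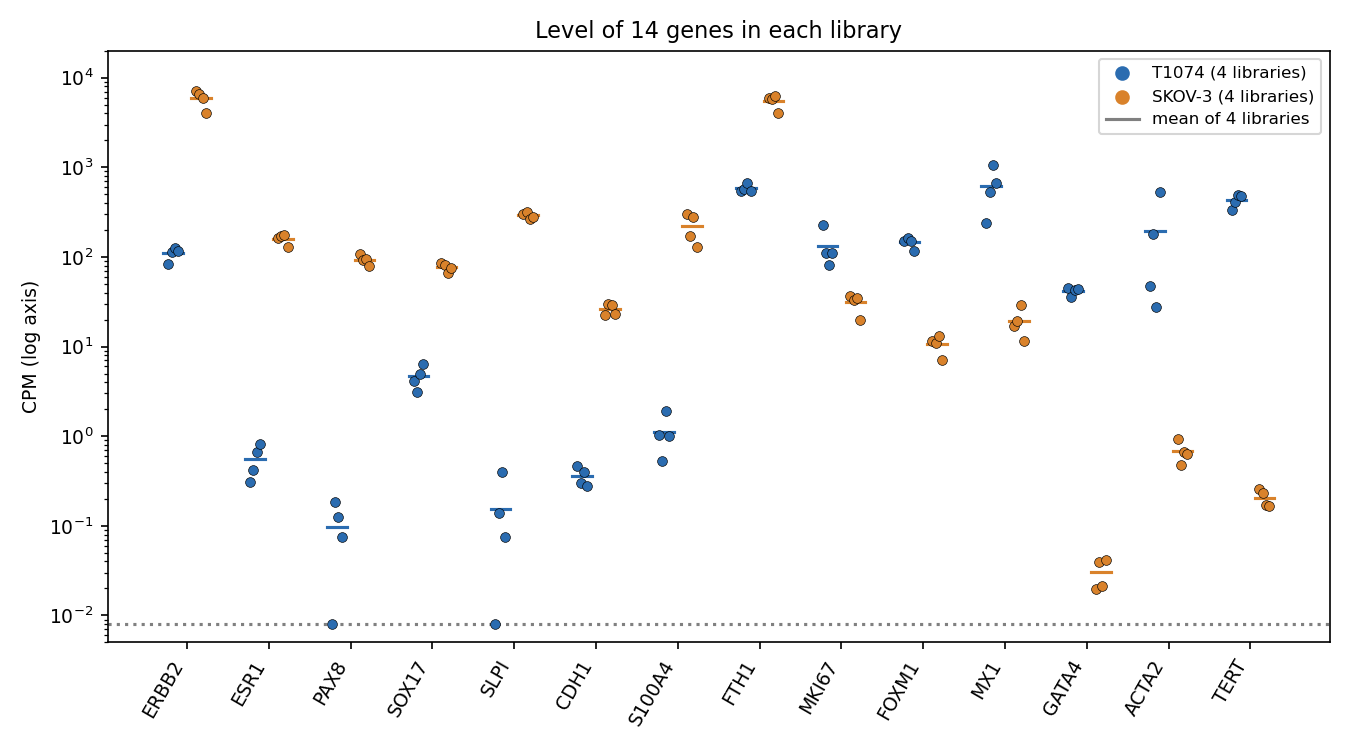
CPM of 14 genes in each library on a logarithmic axis, with T1074 in blue and SKOV-3 in orange and 1 point per library. Short lines mark the mean of the 4 libraries, and points on the dotted line at the bottom are libraries at 0. The points of the lines lie apart for each of these 14 genes, which were picked to show differences.

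ERBB2, which encodes the receptor tyrosine kinase HER2 and lies at chr17:39687914-39730426, was 1 of the 10 protein-coding genes with the largest gain per length, from 13.5 ± 3.82 TPM in T1074 to 468 ± 113 TPM in SKOV-3, where TPM is RSEM's level per length. It was at 7141, 6610, 5942 and 4089 CPM in SKOV-3 replicates 1 to 4 and at 83.9, 113, 126 and 116 CPM in T1074. The lowest SKOV-3 library was far above the highest of T1074, and the mean was 54.1 times as high (log2 fold change 5.76 ± 0.26, adjusted p = 1.86e-08). Its neighbours were also higher. The run of consecutive protein-coding genes that were higher by at least 2-fold was PPP1R1B, STARD3, TCAP, PNMT, PGAP3, ERBB2, MIEN1, GRB7 and IKZF3, on chr17:39626740-39864312, with a median log2 fold change of 5.29. MIEN1, the neighbour of ERBB2, rose from 23.1 ± 4.37 to 902 ± 186 CPM, GRB7, an adaptor that binds HER2, from 1.72 ± 0.558 to 41.7 ± 9.99 CPM, and PPP1R1B, a phosphatase inhibitor, from 0.0811 ± 0.0267 to 280 ± 67.3 CPM. Directly outside the run the differences were below its median. CDK12 and MED1 on one side rose by 0.59 ± 0.11 and 0.59 ± 0.12 on the log2 scale and PSMD3 on the other by 2.16 ± 0.15, while GSDMB and MED24 on that side did not pass the test. Over the list of the region, 22 of 27 tested genes were higher, and CDC6 and TOP2A, both replication genes, were lower. Gene copy number was not analysed here.

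**Figure D3:**
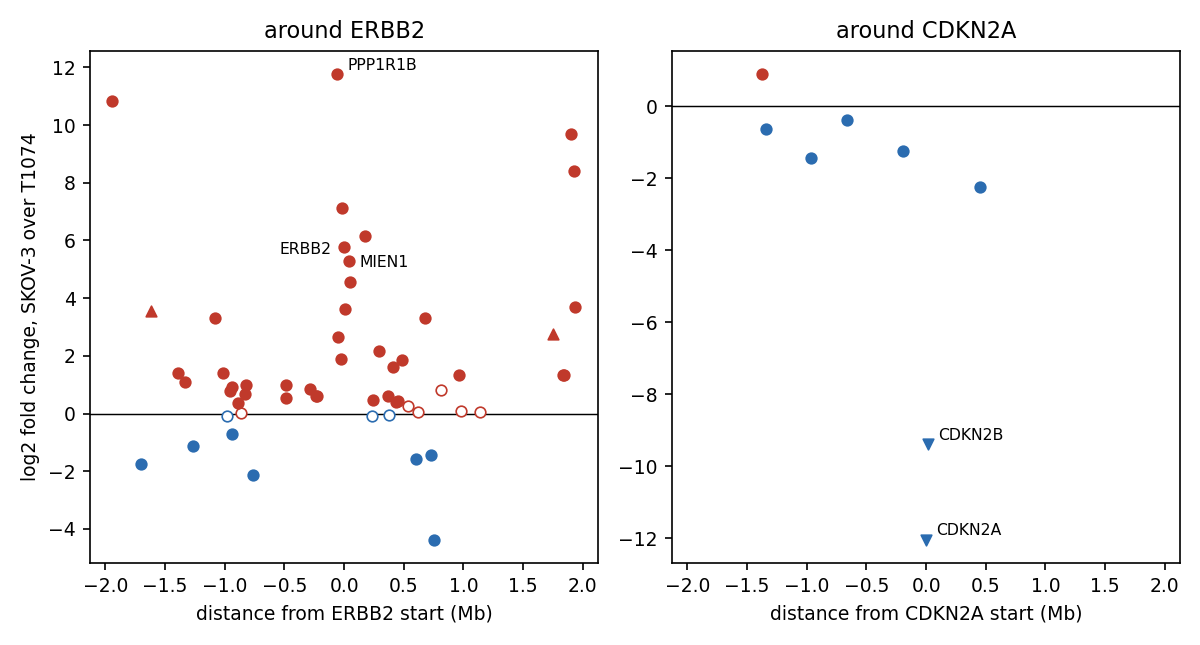
Log2 fold change of SKOV-3 over T1074 for the tested protein-coding genes within 2 Mb of ERBB2 (left) and CDKN2A (right), against the distance of the gene's start from the start of the named gene in Mb. Filled points passed the test and open points did not, and genes at 0 in 1 line are drawn at their bound as triangles. The highest point of the left panel is PPP1R1B, beside ERBB2, and CDKN2A and CDKN2B are the lowest of the right panel.

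Other receptors and ligands of this family differed in both directions. EGFR rose from 91.9 ± 8.27 to 221 ± 31.1 CPM and ERBB4 from 2.63 ± 1.29 to 35.5 ± 6.25 CPM, while ERBB3, the usual partner of HER2, fell from 27.7 ± 8.92 to 1.21 ± 0.186 CPM (log2 fold change -4.52 ± 0.28, adjusted p = 1.82e-07). The ligand gene TGFA was at 36.4, 38.3, 41.9 and 40.8 CPM in SKOV-3 and 0.154, 0.162, 0.322 and 0.0759 CPM in T1074. Of 58 receptor tyrosine kinase and ligand genes tested, 24 were higher and 22 lower, shares of 41.4% and 37.9% that are close to those of all genes. Among the lower ones were PDGFRB, ROR2 and DDR2, receptors of platelet-derived growth factor, WNT5A and fibrillar collagen. MST1R and FGFR4, receptors found on epithelia, rose by 6.23 ± 0.25 and 5.43 ± 0.23 on the log2 scale.

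In the list of RAS, RAF, MEK and ERK genes, 10 of 23 were higher, 6 lower and 7 did not pass, or 8 higher and 8 lower when scaled by library size alone. NRAS and HRAS rose by 0.90 ± 0.15 and 0.56 ± 0.10 on the log2 scale, and the kinase genes MAP2K2 and MAPK3 by 1.26 ± 0.10 and 1.38 ± 0.16. ARAF, a kinase gene of the RAF family, fell by 0.55 ± 0.13. Of 23 genes that ERK signalling induces, 4 were higher, 8 lower and 11 did not pass. Their summed level was nevertheless higher in SKOV-3, at 1751 to 2011 CPM against 951 to 1457 CPM in T1074. DUSP6, a phosphatase that acts on ERK, fell from 79.9 ± 22.4 to 25.1 ± 4.61 CPM, whereas CCND1, the gene of cyclin D1, rose from 46.3 ± 22.3 to 396 ± 27.2 CPM. In the PI3K pathway, the regulatory subunit PIK3R1 rose from 29.4 ± 1.53 to 137 ± 9.16 CPM (log2 fold change 2.22 ± 0.10, adjusted p = 2.20e-08), and the catalytic subunit PIK3CD fell, with a log2 fold change of -2.65 ± 0.17. AKT2 did not pass the test. SGK1, a kinase related to AKT, fell from 151 ± 87.0 to 4.29 ± 0.747 CPM.

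A run of 14 lower genes from SLC43A2 to TSR1 on chr17:1569268-2336657, lies on the short arm of chromosome 17 and has a median of -1.77. It holds HIC1, a transcriptional repressor gene, which fell from 33.6 ± 10.6 to 0.761 ± 0.0968 CPM, and RPA1, which binds single-stranded DNA, with 175 ± 14.2 against 51.2 ± 3.44 CPM. TLCD2, its weakest member, had an adjusted p of 0.0327, which was 0.0505 to 0.104 when any library except T1074 replicate 3 or SKOV-3 replicate 4 was left out. With TLCD2 called lower this was the longest run of lower genes in the comparison, and without that call it parts in 2 and is no longer the longest. A run of 9 lower genes from RNF227 to TMEM107 lies at chr17:7913339-8176399, and the adjusted p of RNF227 was 0.0610 with counts from length-scaled TPM against 0.00741. ANKFY1, an endosomal gene of the same arm, was at 144, 191, 223 and 159 CPM in T1074 and at 0 in all 4 SKOV-3 libraries, a difference of at least 2930-fold, taking 3 counts per library as the floor.

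Several genes of growth arrest and apoptosis were lower in SKOV-3. CDKN1A, which encodes the cyclin kinase inhibitor p21, was at 67.7, 106, 204 and 115 CPM in T1074 and at 17.7, 17.9, 20.7 and 22.4 CPM in SKOV-3 (log2 fold change -2.65 ± 0.29, adjusted p = 1.13e-05). BTG2, AEN and DDB2, genes of growth arrest, apoptosis and repair, fell, with log2 fold changes of -2.87 ± 0.23, -2.38 ± 0.24 and -2.42 ± 0.21, and EDA2R, a death receptor gene, was at 4.20 ± 0.593 CPM in T1074 and at 0 in SKOV-3. MDM2, a ubiquitin ligase, fell less, from 167 ± 30.7 to 99.4 ± 8.34 CPM. SESN2 and GDF15, genes of the stress response, rose by 0.98 ± 0.18 and 1.24 ± 0.34 on the log2 scale.

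In the list of genes around CDKN2A on the short arm of chromosome 9, 12 of 15 tested genes were lower and 2 higher. CDKN2A and CDKN2B, which encode cyclin kinase inhibitors, and the antisense RNA CDKN2B-AS1 were at 0 in every SKOV-3 library, with 40.7 ± 14.3 CPM of CDKN2B and 18.7 ± 4.89 CPM of CDKN2B-AS1 in T1074. ELAVL2, of the same list, was also at 0 in every SKOV-3 library and at 0.269 ± 0.0759 CPM in T1074. DMRTA1, the neighbour of CDKN2B in the run of lower genes, was present at 0.375 ± 0.206 against 1.78 ± 0.344 CPM. Further away, PLAA was lower at 28.7 ± 1.67 against 61.8 ± 5.11 CPM, as was CAAP1 at 12.6 ± 1.01 against 22.8 ± 2.37 CPM. MLLT3, on the other side of CDKN2A, rose by 0.89 ± 0.19 on the log2 scale.

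All 49 tested genes of DNA replication and mitosis were lower in SKOV-3, with a median log2 fold change of -2.02, in a comparison where 34.4% of all genes were lower. Their summed level was 7166, 6402, 6358 and 6720 CPM in T1074 replicates 1 to 4 and 2045, 1644, 1604 and 1235 CPM in those of SKOV-3. No library of one line came within the range of the other. FOXM1, a transcription factor of late cell cycle genes, was at 150, 164, 152 and 118 CPM in T1074 and at 11.6, 11.1, 13.1 and 7.12 CPM in SKOV-3 (log2 fold change -3.76 ± 0.20, adjusted p = 5.53e-08). ANLN, needed for cytokinesis, AURKB, a mitotic kinase, and CDC45, part of the replicative helicase, fell, with log2 fold changes of -3.51 ± 0.21, -3.46 ± 0.18 and -3.06 ± 0.24. MKI67, the gene of the proliferation antigen Ki-67, fell from 133 ± 65.0 to 31.1 ± 7.59 CPM and PCNA, the polymerase clamp, from 247 ± 49.5 to 63.1 ± 10.9 CPM. CDC20 and CENPA were the members nearest to equality, at -0.76 ± 0.22 and -0.88 ± 0.24, and CENPA was the only member whose lines overlapped. All 49 were also lower when scaled by library size alone. That scaling moved the median of all genes by -0.20 on the log2 scale, toward lower in SKOV-3. It could therefore not have turned the direction of the list.

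Regulators of this program were lower too, with 18 of 27 list members lower and 4 higher. E2F1, which activates replication genes, fell from 146 ± 49.5 to 35.7 ± 12.7 CPM, CDK2 from 127 ± 22.6 to 17.3 ± 3.33 CPM and the phosphatase gene CDC25A from 39.4 ± 6.94 to 5.79 ± 0.882 CPM. E2F3 did not pass the test. The cyclins of G1 phase split. CCND1, given above, was higher and CCNE1 rose from 1.64 ± 0.979 to 12.6 ± 1.17 CPM, while CCND2 fell from 0.376 ± 0.163 to 0.0297 ± 0.0251 CPM, CCND3 from 32.6 ± 5.98 to 17.4 ± 2.33 CPM and CCNE2 from 24.8 ± 6.91 to 4.56 ± 1.81 CPM.

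Sequences of 4 promoters are shown because the replication genes fell together and E2F factors are known to bind such sites. The letters TTTCCCGC and TTTGGCGC were searched on both strands of the RefSeq promoters of GRCh38.p14, which run from 250 bases before to 50 after a gene's start. Of the 41 replication and mitosis genes with a promoter in that table, 8 held TTTCCCGC, or 19.5%, against 3.11% of the 12307 tested genes with one, and 7 held TTTGGCGC, or 17.1% against 1.33%. The windows of 30 bases are those of the 4 list members of lowest log2 fold change that hold a match before the gene's start, each read 5′ to 3′ on the strand that carries the letters. Capitals mark the match.
NUSAP1, chr15:41332696-41332725, plus strand: gttacaggcccTTTGGCGCctgcgtattcg
MCM7, chr7:100101566-100101595, plus strand: caggcgccgggTTTCCCGCggtccgagctg
TYMS, chr18:657603-657632, minus strand: tccgcgcgcctTTTCCCGCggccgtcccgc
RFC3, chr13:33818083-33818112, minus strand: cagagacaagtTTTCCCGCgagctccaaat
These windows lie upstream of the named genes, and the matches end 167, 180, 32 and 48 bases before their starts. The shorter sequence TTTGAA, which occurs at genes expressed late in the cell cycle, was in 36.6% of the list against 18.2% of all 27305 promoters in the table, or 1729 of those of the tested genes, and CCAAT was in 75.6% of the list against 42.6% of tested genes. A match describes the letters only, and binding was not measured.

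DNA repair genes fell for 34 of 42 tested. PMS2, of mismatch repair, fell by 0.55 ± 0.15 on the log2 scale. In homologous recombination and crosslink repair, BRIP1, a helicase, was at 115, 154, 125 and 135 CPM in T1074 and 13.4, 9.96, 9.56 and 6.67 CPM in SKOV-3 (log2 fold change -3.74 ± 0.21, adjusted p = 7.84e-08), with all T1074 libraries far above. FANCI fell from 227 ± 23.2 to 30.9 ± 4.69 CPM and BRCA1 from 117 ± 15.8 to 39.5 ± 6.40 CPM. MGMT, whose product removes alkyl groups from guanine, went the other way, with 35.0, 29.8, 29.6 and 27.3 CPM in SKOV-3 and 1 count in all in T1074. NBN and FANCF were the other members that rose, by 0.97 ± 0.11 and 0.86 ± 0.18.

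TERT, the catalytic subunit of telomerase, showed one of the largest losses and was singled out after its values were seen. It was at 337, 415, 494 and 474 CPM in T1074 and at 0.257, 0.234, 0.172 and 0.165 CPM in SKOV-3 (log2 fold change -10.99 ± 0.24, adjusted p = 6.29e-10). By RSEM's division of the reads, nearly all of the T1074 counts went to a pair of coding transcripts, ENST00000334602.10 with 3061 to 9842 expected counts per library and ENST00000310581.10 with 3331 to 9674. Reads shared by transcripts are divided by estimate, so the balance of the pair is uncertain. The labels name SV-40 and no telomerase construct, and reads were not analysed here. TERC, the RNA template of the same enzyme, went the other way, with 31.1 ± 6.99 CPM in SKOV-3 and a log2 fold change of 0.96 ± 0.18.

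Interferon-stimulated genes fell for 43 of 45 tested, none rose, and the median was -3.20. They include antiviral effectors, sensors and the transcription factors that induce them. The sum over the list was 2723, 5774, 13949 and 6502 CPM in T1074 replicates 1 to 4 and 1163, 1160, 1193 and 872 CPM in those of SKOV-3. T1074 replicate 3 was highest and replicate 1 lowest, and even replicate 1 lay above every SKOV-3 library. Replicate 3 also had the largest share of 7SL RNA in T1074, 16.1% against 7.48% to 9.50%, and replicate 1 the largest share of rRNA-like genes, and their part in this spread was not tested. Without replicate 3 of T1074, 42 of the genes were lower, with a median of -2.71.

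MX1, a GTPase that blocks virus replication, was at 237, 526, 1063 and 669 CPM in T1074 and at 16.9, 19.4, 29.0 and 11.4 CPM in SKOV-3 (log2 fold change -5.02 ± 0.47, adjusted p = 3.61e-06). RSAD2, the gene of viperin, was at 22.3, 93.5, 236 and 72.4 CPM in T1074 and at 0.457, 0.256, 1.29 and 0.124 CPM in SKOV-3, a log2 fold change of -7.65 ± 0.86 that was -6.91 without T1074 replicate 3 and -8.50 without SKOV-3 replicate 3. ISG15, a ubiquitin-like modifier, had 59.4, 171, 930 and 206 and 13.2, 16.3, 18.0 and 10.8 CPM, and its log2 fold change was -4.55 ± 0.74 with all libraries and -3.32 without T1074 replicate 3. Among the regulators, STAT2 fell from 267 ± 59.4 to 50.6 ± 1.90 CPM and IRF9 from 91.2 ± 37.5 to 19.6 ± 4.14 CPM. The RNA sensors RIGI and IFIH1 fell, with log2 fold changes of -4.17 ± 0.45 and -3.20 ± 0.36. IFI27 and IFITM2 were the 2 members that did not pass, at 47.8 ± 43.6 and 32.6 ± 12.5 CPM in T1074 and 38.4 ± 5.27 and 36.9 ± 14.2 CPM in SKOV-3.

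**Figure D4:**
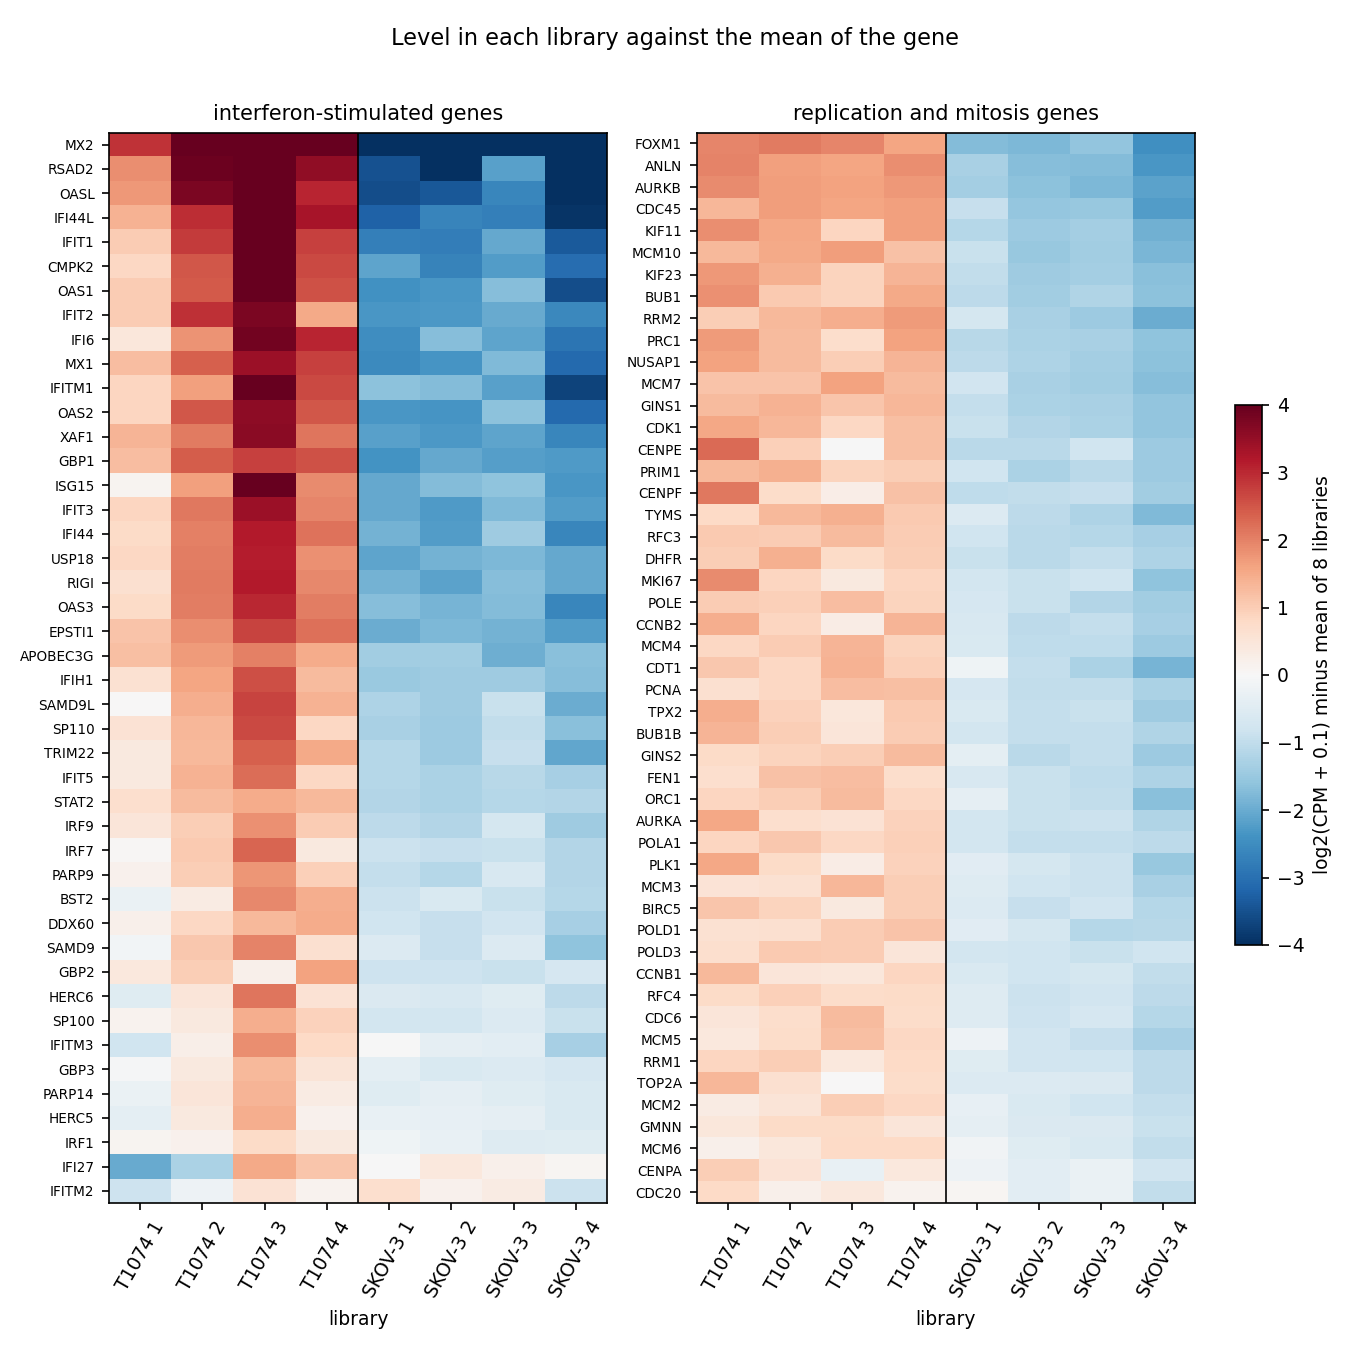
Log2(CPM + 0.1) of 44 of the 45 interferon-stimulated genes (left) and 49 replication and mitosis genes (right) in each library, minus the mean of the gene over the 8 libraries, with 1 row per gene ordered by its log2 fold change and 1 column per library. Red is above the gene's mean and blue below, and the colours end at 4 in each direction. The interferon genes differ among the T1074 libraries, with replicate 3 reddest, and the replication genes differ less within each line.

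Promoter sequences of 8 of these genes are shown because their members fell together and a transcription factor complex that holds STAT2 and IRF9 is known to bind an element with the letters GAAANNGAA. These letters were searched on both strands of the same promoters. Of the 34 interferon-stimulated genes with a promoter in the table, 24 held a match, or 70.6%, against 8.92% of the 12307 tested genes with one. The windows are those of the 8 list members of lowest log2 fold change that hold a match before the gene's start, each read 5′ to 3′ on the strand that carries the letters. Capitals mark the match.
RSAD2, chr2:6865796-6865825, plus strand: agcgggaaacGAAAGCGAAgcgttgcgggg
IFI44L, chr1:78620365-78620394, plus strand: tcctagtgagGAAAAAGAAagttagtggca
IFIT1, chr10:89392511-89392540, minus strand: ggaaacctaggGAAACCGAAaggggaaagt
IFI6, chr1:27672266-27672295, minus strand: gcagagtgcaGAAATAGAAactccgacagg
MX1, chr21:41431845-41431874, minus strand: ttttattcacgGAAAGAGAAacagagtgac
IFITM1, chr11:313990-314019, plus strand: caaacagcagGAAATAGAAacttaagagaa
GBP1, chr1:89065315-89065344, plus strand: tagagtaatatGAAACTGAAagtacttcgt
ISG15, chr1:1013386-1013415, plus strand: aagggaaaccGAAACTGAAgccaaatttgg
The log2 fold changes of IFI44L, IFIT1, IFI6, MX1, IFITM1, GBP1 and ISG15 were -6.81, -5.85, -5.02, -5.02, -4.98, -4.59 and -4.55, and without T1074 replicate 3 those of IFI44L, IFIT1, IFI6 and IFITM1 were -5.93, -5.06, -4.38 and -4.04. All of these windows are upstream of the named gene on GRCh38.p14, with the match ending 71, 65, 94, 85, 187, 32, 118 and 93 bases before the start of RSAD2, IFI44L, IFIT1, IFI6, MX1, IFITM1, GBP1 and ISG15. Whether the element was used in these cells was not measured.

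Genes of antigen presentation split, with 12 of 22 lower and 3 higher, or 12 and 5 without T1074 replicate 3. Of the class I heavy chains, whose reads are similar and are divided among them by RSEM's estimate, HLA-B and HLA-C fell, with log2 fold changes of -2.11 ± 0.37 and -3.07 ± 0.31. TAP1 and TAP2, the peptide transporters, fell, with log2 fold changes of -1.28 ± 0.22 and -1.72 ± 0.31, and ERAP1, a peptide-trimming enzyme, fell from 170 ± 23.5 to 29.7 ± 0.324 CPM. CD274, which encodes the checkpoint ligand PD-L1, was at 16.9 ± 7.45 CPM in T1074 and at 0.283 ± 0.0891 CPM in SKOV-3, and MICB, a ligand of a natural killer cell receptor, at 43.9 ± 8.02 and 1.48 ± 0.147 CPM.

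Secreted mediators were lower for 19 of 31 tested. IL6 fell from 83.3 ± 32.9 to 8.58 ± 1.85 CPM, PTGS2, the inducible cyclooxygenase, from 99.9 ± 54.3 to 0.788 ± 0.267 CPM, and TGFB2 from 95.1 ± 46.2 to 3.91 ± 0.700 CPM. IL1A and IL18, cytokines of epithelia, rose, and IL18 was at 39.7, 33.1, 34.7 and 24.9 CPM in SKOV-3 and 0.257, 0.508, 1.41 and 0.430 CPM in T1074, where replicate 3 was highest. The log2 fold changes of IL1A and IL18 were 4.72 ± 0.40 and 5.58 ± 0.39, or 5.37 and 6.28 without that library. CXCL8 did not pass the test.

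In a list of NRF2, the factor that responds to oxidative stress, and its targets, 28 of 34 tested genes rose. The sum over the list was 12453, 14639, 13399 and 12917 CPM in SKOV-3 replicates 1 to 4 against 2944, 3002, 3782 and 3768 CPM in T1074. The ferritin heavy chain FTH1, which stores iron, made up a large part of it, at 5915, 5818, 6306 and 4089 CPM in SKOV-3 and 547, 576, 668 and 542 CPM in T1074 (log2 fold change 3.25 ± 0.20, adjusted p = 1.44e-07). SLC7A11, the cystine transporter, rose from 214 ± 25.3 to 846 ± 125 CPM, NQO1, a quinone reductase, from 62.3 ± 21.6 to 502 ± 68.9 CPM and GCLC, which starts glutathione synthesis, from 22.5 ± 3.65 to 90.2 ± 11.9 CPM. NFE2L2, the gene of NRF2 itself, rose by 0.65 ± 0.12 on the log2 scale. KEAP1, whose product targets NRF2 for degradation, had a log2 fold change of 0.19 ± 0.14 that did not pass the test, with an adjusted p of 0.240, or 0.00874 without T1074 replicate 3. GSTM3 and MGST1, both glutathione transferases, fell, with log2 fold changes of -0.82 ± 0.12 and -0.85 ± 0.19.

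The letters TGACNNNGC, the core of the antioxidant response element, were found in the promoters of 9 of the 25 NRF2 targets with one in the table, or 36.0%, against 16.1% of all 27305 promoters in the table and 2333 of the 12307 of tested genes, so that most of these promoters lack them in this window. The matches shown are those of the 4 targets of highest log2 fold change among those that hold one before the gene's start, with the match in capitals, to set beside their values.
ME1, chr6:83431169-83431198, minus strand: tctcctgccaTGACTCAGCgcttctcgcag
EPHX1, chr1:225825266-225825295, plus strand: tgagattggcTGACTTGGCaggactgtgca
PGD, chr1:10398853-10398882, minus strand: gagcacctagaTGACATTGCcccggcgagg
CBR1, chr21:36069855-36069884, minus strand: gccagctagccTGACTTTGCagaacccgca
ME1, which makes NADPH from malate, rose by 2.69 ± 0.17 on the log2 scale, EPHX1, an epoxide hydrolase, by 2.65 ± 0.16, PGD, of the pentose phosphate pathway, by 2.21 ± 0.17, and CBR1, a carbonyl reductase, by 1.38 ± 0.12.

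Other genes of detoxification and transport were higher for 16 and lower for 10 of 29 tested. CYP1B1, a cytochrome that oxidizes estrogens and aromatic compounds, rose from 18.0 ± 4.50 to 369 ± 63.3 CPM (log2 fold change 4.36 ± 0.22, adjusted p = 4.41e-08), and ALDH3A1, an aldehyde dehydrogenase, from 0.118 ± 0.0660 to 48.5 ± 25.5 CPM. UGT1A6 was at 92.3 ± 23.0 CPM in SKOV-3 and had 2 counts in all in T1074, and the UGT1A genes share exons whose reads are divided by estimate. The drug exporters ABCB1 and ABCG2 were lower in SKOV-3, at 0.0558 ± 0.00857 against 5.84 ± 2.20 CPM and 1.44 ± 0.432 against 11.2 ± 1.27 CPM, while ABCC1 and ABCC3 rose by 2.01 ± 0.13 and 3.29 ± 0.20.

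In central carbon metabolism 26 of 55 genes were higher and 15 lower, or 19 and 17 when scaled by library size alone. At several steps the isoforms differed in opposite directions. The glucose transporter SLC2A1 rose from 55.5 ± 10.8 to 340 ± 74.2 CPM, whereas SLC2A3 was at 92.2, 71.6, 104 and 114 CPM in T1074 and at 0.0198, 0, 0.0646 and 0.0413 CPM in SKOV-3. Of the hexokinases, HKDC1 rose from 2.44 ± 0.793 to 157 ± 39.1 CPM and HK1 by 1.26 ± 0.12 on the log2 scale, while HK2 fell by 1.39 ± 0.16. The muscle type phosphofructokinase PFKM and the enolase ENO2 fell from 70.2 ± 12.5 to 7.61 ± 0.209 CPM and from 96.4 ± 18.5 to 9.68 ± 0.771 CPM, and PFKL, PFKP and ENO1 rose. LDHA, which makes lactate, was at 2192, 1884, 2221 and 1536 CPM in SKOV-3 and 232, 185, 244 and 336 CPM in T1074 (log2 fold change 2.97 ± 0.21, adjusted p = 5.42e-07). HIF1A, a factor that controls several of these genes, rose from 223 ± 56.4 to 911 ± 96.1 CPM. Of the respiratory chain, 28 of 43 nuclear-encoded subunits were higher, with a median of 0.55, while 5, among them SDHA, were lower. Scaling by library size alone gave 20 higher and 6 lower.

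In cholesterol and fatty acid synthesis 16 of 30 genes did not pass the test, 6 were higher and 8 lower. These counts turned on single libraries, with 14 higher and 7 lower without T1074 replicate 4 and 3 and 8 without T1074 replicate 2. EBP, a sterol isomerase, was at 34.5, 41.3, 44.6 and 49.0 CPM in T1074 and 0.440, 0.262, 0.743 and 0.504 CPM in SKOV-3 (log2 fold change -6.47 ± 0.27, adjusted p = 1.07e-08). SC5D, a later enzyme of the same pathway that lies in a run of higher genes on chromosome 11, rose from 16.7 ± 2.33 to 106 ± 25.2 CPM. FASN, the fatty acid synthase, rose by 1.44 ± 0.24 on the log2 scale. Ribosomal protein genes were higher for 32 of 67 and lower for 4, with a median of 0.46, and their sum was lowest in T1074 replicate 3, at 16650 CPM against 26856 to 29153 CPM in the other T1074 libraries and 32445 to 36674 CPM in SKOV-3. Without T1074 replicate 3, 33 were higher, 9 lower and the median was 0.30. Only 2 were lower without T1074 replicate 1 or 2 or without SKOV-3 replicate 1, 3 or 4, and scaling by library size alone gave 21 higher and 6 lower. EEF1A1, the elongation factor that brings tRNA to the ribosome, had the largest gain in TPM of a protein-coding gene after FTH1, from 1458 ± 538 to 3290 ± 371 TPM.

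HOX genes, which specify position along the body axis, differed cluster by cluster, with 13 of 35 higher and 20 lower. All 7 tested genes of the HOXC cluster were lower in a single run on chr12:53973126-54056030, and HOXC4, HOXC5, HOXC10 and HOXC11 were at 0 in every SKOV-3 library. HOXC6 had 13.8, 8.79, 11.2 and 10.0 CPM in T1074 and 0.119, 0, 0.0431 and 0.0413 CPM in SKOV-3, a log2 fold change of -7.67 ± 0.43, or -8.47 without SKOV-3 replicate 1. The posterior part of HOXB, HOXB5 to HOXB13 on chr17:48591257-48728750, was higher, and HOXB6 was at 87.2, 97.5, 97.6 and 95.7 CPM in SKOV-3 and 7.13, 6.40, 8.13 and 6.20 CPM in T1074 (log2 fold change 3.76 ± 0.13, adjusted p = 3.03e-09). HOXB2 and HOXB3 rose by less, 0.73 ± 0.12 and 0.56 ± 0.14, and HOXB4 did not pass. In HOXA, which was lower from HOXA2 to HOXA11 apart from HOXA6, HOXA7 fell from 12.1 ± 3.54 to 0.106 ± 0.0380 CPM, and HOXA13 at the other end rose from 0.197 ± 0.121 to 14.1 ± 2.38 CPM. HOXD was mixed, with HOXD13 at 5.23 ± 0.409 against 0.0428 ± 0.0298 CPM and HOXD4 at 0.285 ± 0.0501 against 8.44 ± 2.28 CPM. The last genes tested of HOXA, HOXB and HOXD, numbered 13, were thus all higher in SKOV-3.

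**Figure D5:**
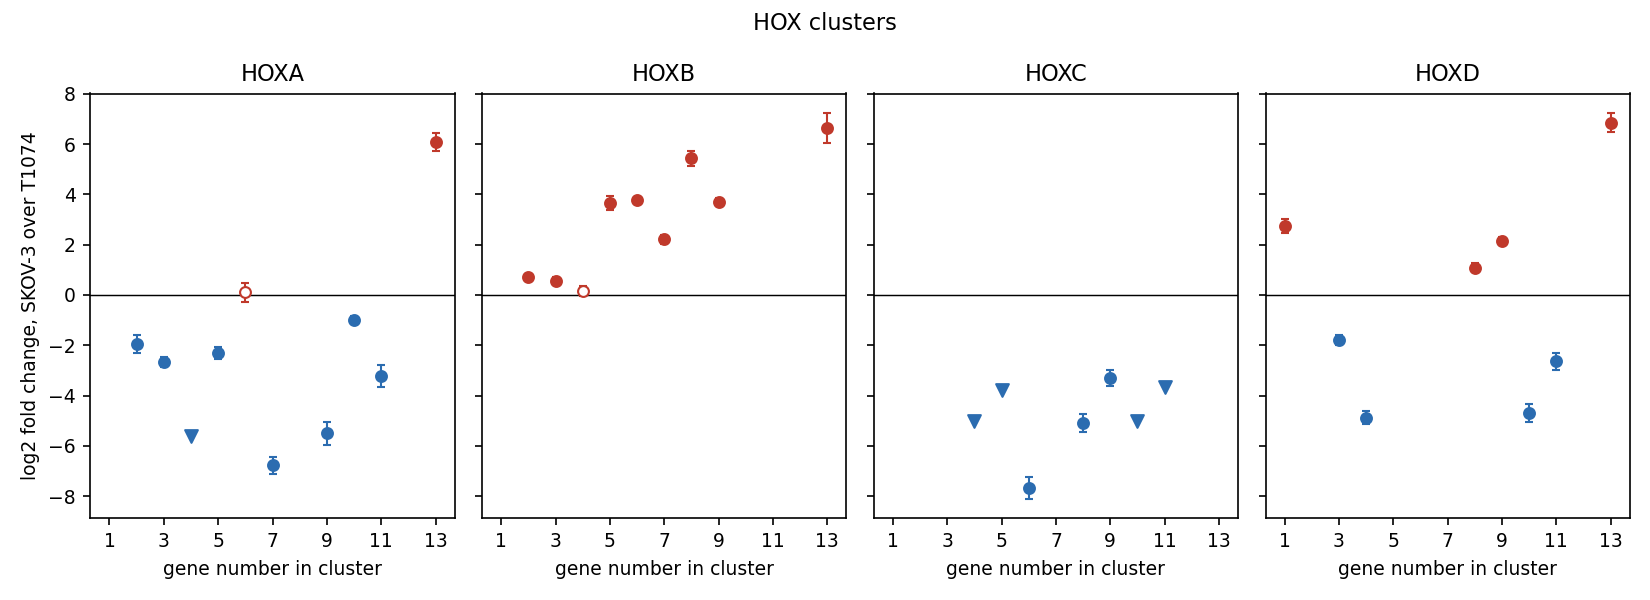
Log2 fold change of SKOV-3 over T1074 for the genes of the 4 HOX clusters, in the order of their numbers, with SE as error bars. Filled points passed the test, open points did not, triangles are genes at 0 in SKOV-3 drawn at their bound, and genes without a point were not tested or are not shown. HOXC lies below 0 throughout, HOXB5 to HOXB13 lie above 2, and HOXA13 and HOXD13 lie above 6.

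Other neighbours also differed together. In all, 64 runs of at least 4 consecutive protein-coding genes were higher by at least 2-fold, holding 337 genes, and 86 runs with 431 genes were lower, and no test was made of the runs. The longest was 29 protocadherin genes of the alpha and beta clusters on chr5:140786136-141249365, from PCDHA1 to PCDHB15, with a median log2 fold change of 4.62. PCDHB2, a single-exon gene of adhesion between cells, was at 31.0, 29.7, 27.8 and 23.5 CPM in SKOV-3 and 0.318, 0.467, 0.0862 and 0.141 CPM in T1074, a log2 fold change of 6.82 ± 0.35 that was 7.48 without T1074 replicate 2. The genes of the alpha cluster share their last exons, so their counts are divided by estimate and are not independent. A run of 7 of the gamma cluster followed, with a median of 2.65. The zinc finger genes of chromosome 19 were higher in several runs, such as 9 genes from ZNF468 to ZNF677 on chr19:52838010-53254898 (median 2.29) and 6 from ZNF257 to ZNF730 on chr19:22052430-23147221 (median 5.66). Cytidine deaminases of the APOBEC3 cluster, which edit viral DNA and have similar sequences, were lower in a run of 7 genes that ends with CBX7 and PDGFB, on chr22:38982347-39244982 (median -3.31).

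Whole chromosomes differed by less. The median log2 fold change of protein-coding genes was highest on chromosome 4, at 0.40, where 49.2% of the genes tested were higher, and lowest on chromosome 7, at -0.58, where 57.2% were lower. Over all protein-coding genes 5036 of 14216 were higher and 4985 lower.

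Of 36 Wnt pathway genes 16 were higher and 6 lower, or 15 and 10 when scaled by library size alone. WNT7A was at 91.1, 68.7, 76.7 and 46.7 CPM in SKOV-3 and 0, 0.0231, 0 and 0.0253 CPM in T1074. RNF43, a ligase that removes Wnt receptors from the surface, was at 13.4, 13.9, 31.3 and 13.5 CPM in T1074 and 0, 0.0303, 0 and 0 CPM in SKOV-3, and its relative ZNRF3 rose by 1.21 ± 0.14 on the log2 scale. In a list of cadherins, neural adhesion and guidance genes, 21 of 37 were higher and 14 lower. UNC5B, a netrin receptor, rose by 4.98 ± 0.20 on the log2 scale, NTN4 from 25.4 ± 5.77 to 236 ± 33.8 CPM and NRP1 from 72.7 ± 21.1 to 554 ± 35.6 CPM. CDH8, CDH10, CDH12, NRXN3 and CHL1 were at 0 in every SKOV-3 library.

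Of the chromatin remodelling complex SWI/SNF, whose ARID1A subunit is often mutated in clear cell carcinoma, 7 of 25 genes were higher and 10 lower. SMARCC1, a core subunit, fell from 90.0, 70.9, 56.1 and 99.6 CPM in the libraries of T1074 to 5.34, 4.68, 5.34 and 6.34 CPM in those of SKOV-3 (log2 fold change -3.87 ± 0.20, adjusted p = 4.63e-08). ARID1A fell by 0.71 ± 0.17 and ARID1B rose by 1.00 ± 0.14 on the log2 scale. In the apoptosis list, 10 of 22 were higher and 6 lower, or 5 and 9 when scaled by library size alone. HRK, BIK and BMF, which promote cell death, rose by 2.75 ± 0.37, 2.26 ± 0.22 and 1.43 ± 0.16 on the log2 scale. APAF1, which assembles the caspase-activating apoptosome, fell from 53.7 ± 7.59 to 7.44 ± 0.545 CPM, while MCL1 did not pass.

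In every SKOV-3 library 71 genes were at 0 that averaged at least 1 CPM in T1074 and were above 0 in each of its libraries, and 60 of them are protein-coding. In every T1074 library 66 genes were at 0 by the same rule, 26 of them protein-coding. A gene at 0 in a line is given as a bound, against a floor of 3 counts per library, and since reads were counted without molecular identifiers, this bound covers only the error of counting. GYPC, a membrane protein of the cytoskeleton of red cells, was at 49.6 ± 4.63 CPM in T1074, at least 811-fold above SKOV-3. NRK, a kinase gene of the placenta, and ST6GALNAC5, a sialyltransferase, were at least 745-fold and 687-fold lower. The imprinted RNA MEG3 was at 32.3 ± 10.7 CPM in T1074 and at least 528-fold lower, and its neighbour MEG8 at least 306-fold. Among genes at 0 in T1074, the long noncoding RNA LINC02582 was at least 700-fold higher in SKOV-3, and LINC02167 at least 637-fold. S100P, a calcium-binding protein of several carcinomas, was at 10.1 ± 2.96 CPM and at least 108-fold higher.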

How the data were processed

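RNA of 4 replicates each of SKOV-3 and T1074 was sequenced as directional, rRNA-depleted paired-end libraries. Per the labels and the study's methods, the authors used bcl2fastq 2.20.0.422 for demultiplexing, Trimmomatic 0.39 for trimming, STAR 2.7.3a for alignment to hg38 and RSEM 1.3.1 to quantify the transcripts of GENCODE 39. The deposited values are RSEM's expected count and TPM per transcript, and the authors pooled no replicates. For each gene the expected counts of its transcripts were added and rounded to whole numbers, as the test requires, and TPM was summed likewise and used for description only. RSEM divides reads shared by transcripts by estimate, so values of near-identical genes are uncertain. Gene names, types and positions came from GENCODE 44 on GRCh38, which matched 61369 of 61533 identifiers, and the other 164 kept their identifiers.

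The 8 libraries were fitted in edgeR 4.0.16 (R 4.3.3) with TMM factors, filterByExpr by line, a quasi-likelihood F-test with the line as the only term and Benjamini-Hochberg adjustment, and an SE is the absolute log2 fold change divided by the square root of F. The fit had 6 residual degrees of freedom and a common dispersion of 0.044, a biological coefficient of variation of 21.1%. The fit was also run on simulated data in which few genes were changed, evenly up and down, unlike these lines. That run checks the code and not the scaling or the error rate here. The remaining 4 libraries of the study entered only the alternative with 12 libraries. No replicates were duplicates, since chi-square values between them, divided by their degrees of freedom, were 26.43 to 91.01 within SKOV-3 and 104.5 to 325.1 within T1074. A fold against a line at 0 was computed against 3 counts per library, on average 0.0611 CPM in SKOV-3 and 0.0934 CPM in T1074. A run of neighbours held at least 4 protein-coding genes in order of start, called in 1 direction and changed at least 2-fold.

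Genes named by rule were the 15 largest rises and falls of protein-coding genes with at least 10 CPM in the higher line and no overlap, the 10 largest differences in TPM, the 5 largest changes of lncRNA genes, marked key genes of each list with its 4 largest changes at 2 CPM or more, the 10 highest genes at 0 in the other line, the longest runs and genes the study names. The text names 316 genes, of which 199 follow this rule. The other 117 were chosen after their values were seen, and 109 of them are members of a list. The members and lists were chosen with earlier results of these data known. Alternatives were another test (DESeq2 1.42.0 and limma-trend in limma 3.58.1), other scalings, filters and counts, 12 libraries, a replicate block and leaving out each library. Some genes are not reported here.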

Additional observations from a re-analysis of the deposited data

Results flagged for a closer look

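Among 601 groups of 4 libraries of a line, each a gene of the text, a list sum or a library measure, 42 had 1 library far from the other 3 by Dixon's ratio at its 95% critical value. Chance alone would give about 1 in 20 such groups if the values were normal and independent. Low counts and genes of the same library are not. Some gaps rest on a single count, such as MGMT at 0.0253 CPM in T1074 replicate 4. Others are small beside the level, such as CBR1 at 151 CPM against 159 to 160 CPM in SKOV-3. The libraries that stood apart were T1074 replicates 1 to 4 in 5, 7, 10 and 7 groups and SKOV-3 replicates 1 to 4 in 2, 4, 2 and 5. Each value below is given beside the range of the other 3 libraries of its line, and the cause of these gaps was not tested.

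T1074 replicate 1 had a total expected count of 19780836 against 36001434 to 38583368. Its share of rRNA-like counts was 21.4% against 4.36% to 5.12%. In T1074 replicate 1, ERBB3 was at 14.4 CPM against 31.0 to 33.8 CPM, PNMT at 0 CPM against 0.0231 to 0.0253 CPM and SERPINE2 at 19.7 CPM against 35.6 to 36.3 CPM. In T1074 replicate 2, CXCL8 was at 27.3 CPM against 142 to 157 CPM, HK2 at 44.0 CPM against 66.1 to 70.1 CPM and HOXB13 at 0.185 CPM against 0 CPM. In the same library, ITGB6 was at 0 CPM against 0.0496 to 0.0513 CPM, MUC16 at 0.323 CPM against 0.0248 to 0.0513 CPM and UGT1A6 at 0.0462 CPM against 0 CPM. There, ZEB2 was at 50.6 CPM against 67.9 to 71.0 CPM. In T1074 replicate 3, AEN was at 85.6 CPM against 41.0 to 47.3 CPM, GCLC at 28.0 CPM against 20.3 to 21.1 CPM and GDF15 at 137 CPM against 42.3 to 56.3 CPM. In the same library, IL1A was at 9.62 CPM against 2.91 to 3.08 CPM, ISG15 at 930 CPM against 59.4 to 206 CPM and MMP10 at 0.0248 CPM against 0 CPM. There, MMP3 was at 0.297 CPM against 0 to 0.0253 CPM, RFC3 at 82.6 CPM against 69.2 to 70.8 CPM and RNF43 at 31.3 CPM against 13.4 to 13.9 CPM. Further, TAP2 was at 327 CPM against 107 to 135 CPM. In T1074 replicate 4, CDKN2A was at 363 CPM against 214 to 227 CPM, HERPUD1 at 119 CPM against 68.0 to 71.8 CPM and HOXD4 at 11.8 CPM against 6.99 to 7.60 CPM. In the same library, HRAS was at 20.4 CPM against 23.9 to 24.6 CPM, MGMT at 0.0253 CPM against 0 CPM and NRXN3 at 18.2 CPM against 6.49 to 8.26 CPM. There, TGFB2 was at 164 CPM against 65.9 to 78.2 CPM.

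In SKOV-3 replicate 1, CCN2 was at 28.7 CPM against 16.3 to 18.4 CPM and MT1X at 8.91 CPM against 4.88 to 5.47 CPM. In SKOV-3 replicate 2, ALDH3A1 was at 86.6 CPM against 32.3 to 38.2 CPM, CDK12 at 157 CPM against 143 to 145 CPM and FN1 at 2176 CPM against 1480 to 1596 CPM. In the same library, RNF43 was at 0.0303 CPM against 0 CPM. In SKOV-3 replicate 3, HOXB2 was at 36.6 CPM against 33.7 to 33.9 CPM and PRAME at 17.6 CPM against 19.2 to 19.5 CPM. In SKOV-3 replicate 4, CBR1 was at 151 CPM against 159 to 160 CPM, CXCL8 at 221 CPM against 117 to 133 CPM and MIEN1 at 626 CPM against 977 to 1026 CPM. In the same library, TOP2A was at 108 CPM against 149 to 153 CPM. The summed level of the interferon-stimulated genes in SKOV-3 replicate 4 was 872 CPM against 1160 to 1193 CPM.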

How the results depend on the processing

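The counts of genes higher and lower in SKOV-3, 6030 and 6177, were 5615 to 6375 and 5653 to 6395 when 1 library was left out. They were 6268 and 6137 with DESeq2, 6196 and 6084 with limma-trend, 5836 and 5966 with counts from length-scaled TPM, 7622 and 6893 without a filter and 5067 and 5262 with a filter of 1 CPM. With a minimum log2 fold change of 1 they were 3570 and 3915. Scaling by library size alone moved the median of all genes by -0.20 on the log2 scale and gave 4741 higher and 7079 lower genes, and no filter moved it by 0.11. With the replicate number as a block the counts were 5811 and 5782. Same-numbered libraries of the lines did not deviate together, with correlations of -0.073, 0.026, -0.012 and -0.091, so the numbers do not pair them. Among the genes of the text the block ended the call of S100A10 and TLCD2, at an adjusted p of 0.0626 and 0.0813 by edgeR.

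For single genes, 10338 of 10518 alternative values kept their direction and their side of the threshold, 108 lost the call, 71 gained one and 1 turned. That was NEAT1, at a log2 fold change of 0.54, which was -0.84 with counts from length-scaled TPM (edgeR adjusted p = 0.0156), and the cause was not tested. Of the 2000 alternative counts of list members, 97 moved by over 1.5 times.

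Fitted log2 fold changes of some genes of the text moved by over 1.5 times in linear terms without 1 library. Without T1074 replicate 3 those of CALB1, MMP10, CP, LCN2 and KRT17 were 12.13, 10.13, 11.05, 9.71 and 4.49, and without T1074 replicate 2 those of HOXB13, LHX1, PCDHA1 and UGT1A6 were 10.93, 9.62, 5.52 and 14.93. Without T1074 replicate 4 those of MGMT and ZNF730 were 13.34 and 6.80, and without T1074 replicate 1 that of MMP1 was 13.36. Without SKOV-3 replicate 1, 2 and 4 those of MMP7, RNF43 and TEK were 11.88, -12.53 and -10.88. Apart from KRT17, these genes were below 0.5 CPM on average in 1 line.

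Other limits for genes at 0 and for runs were chosen after seeing the data. With a mean of at least 0.5 CPM in the other line, 109 genes were at 0 in SKOV-3 and 102 in T1074, and with at most 1 count in all over the line 95 and 109. Without a minimum fold change there were 276 runs of neighbouring genes higher in SKOV-3 and 253 runs of neighbouring genes lower there, and with a minimum log2 fold change of 2 there were 19 and 16. The depth of T1074 replicate 1, 19780836 counts, limits low genes most.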

Other observations

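Cancer-testis antigens, which are mostly limited to germ cells and to tumours, were at or near 0 in both lines. Of 28 on the list, 1 was tested. That gene, PRAME, had 19.5, 19.2, 17.6 and 19.5 CPM in the SKOV-3 libraries and no counts in those of T1074, a difference of at least 203-fold. Metallothioneins, which bind zinc and copper, were lower for 3 of 4 tested, with MT1E at 25.6, 14.4, 18.2 and 33.1 CPM in T1074 and 0.0396, 0.0390, 0.0646 and 0.0826 CPM in SKOV-3 (log2 fold change -8.59 ± 0.39, adjusted p = 2.13e-08 by edgeR's quasi-likelihood test). MT2A fell from 71.9 ± 23.4 to 26.3 ± 9.13 CPM, and MT1X did not pass the test. The genes of this family resemble each other, so that reads can be divided among them.

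Genes of endoplasmic reticulum stress did not move together, since 6 of 21 were higher, 5 lower and 10 did not pass. The counts moved with single libraries, to 10 higher and 4 lower without T1074 replicate 4, 3 and 4 without SKOV-3 replicate 4, 3 and 5 without T1074 replicate 1 and 6 and 3 without SKOV-3 replicate 1, and they were 3 and 7 when scaled by library size alone. HERPUD1, a factor of protein degradation, rose by 1.46 ± 0.18, and PPP1R15A, a phosphatase subunit that ends the stress response, fell by 1.56 ± 0.29 on the log2 scale. Among the serpins, 7 of 13 were higher and 4 lower. SERPINE2, an inhibitor of thrombin, rose from 31.9 ± 8.15 to 283 ± 44.5 CPM, and SERPING1, which inhibits the first component of complement, fell from 10.9 ± 2.60 to 0.103 ± 0.0405 CPM.

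Of 29 long noncoding RNAs named in cancer work, 12 were higher and 10 lower. MALAT1, an abundant nuclear RNA, rose from 607 ± 134 to 1695 ± 144 CPM, CRNDE from 0.660 ± 0.283 to 18.8 ± 1.46 CPM, and CASC19 from 0.135 ± 0.102 to 14.2 ± 1.69 CPM. H19, an imprinted RNA, fell from 2.33 ± 1.37 to 0.233 ± 0.119 CPM, and PVT1 from 17.2 ± 5.30 to 6.32 ± 0.332 CPM.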
